A study of Mus musculus with 6 samples.

Results

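This account covers 10 mouse genes of the NF-kB pathway among the 24940 genes of the deposited exon count table: the subunit genes Nfkb1, Nfkb2 and Relb, the feedback genes Nfkbia, Nfkbiz, Tnfaip3 and Birc3, and the adhesion and alarmin genes Icam1, Vcam1 and Il33. They were picked by gene symbol, by a rule that uses no measured value. Earlier results of these data were known when they were chosen. All 10 were found and had enough counts to be tested. RNA came from hepatic stellate cells, the pericytes of the liver sinusoid, which had been isolated from wild-type female C57BL/6JBomTac mice and cultured for 2 days. One group, OCA+VIP, received 10 µM obeticholic acid, an agonist of the bile acid receptor FXR, and 3 h later 500 nM vasoactive intestinal peptide (VIP), a neuropeptide that raises cAMP, for 3 h more. The other, DMSO+VIP, received an equal volume of vehicle (DMSO, diluted 1:1000) in place of obeticholic acid, and then the same VIP. VIP was thus shared by all libraries, so every comparison below is of obeticholic acid with vehicle in cells exposed to VIP. Each group has 3 libraries, numbered as the table's columns are. Nothing in the labels ties them to separate mice or cultures, and p-values therefore measure only sample-to-sample spread, which may be technical.

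NF-kB is a family of dimeric transcription factors that inhibitors of the I-kappa-B family hold in the cytoplasm. Inflammatory cytokines and microbial products activate the IKK kinase complex, which marks the inhibitors for destruction, and the freed dimers induce cytokines, adhesion molecules and the genes of their own inhibitors. In a second branch, the kinase encoded by Map3k14 leads to processing of the Nfkb2 precursor, whose product pairs with Relb. In stellate cells the pathway is known for inflammatory activation and for survival during fibrosis, and FXR agonists have been described as restraining it in liver.

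The deposited counts summed to 4534360, 9947968 and 5804978 in OCA+VIP libraries 1 to 3, and to 4574160, 2839106 and 3733036 in DMSO+VIP libraries 1 to 3. Low counts lay in steps, with 65.4% to 87.5% of counts above 0 and up to 30 within 0.5 of a multiple of 3. The labels give no reason for this, and the share to be had without such steps was not computed. Of 15 stellate cell markers, none was at 0 in all 6 libraries, and their summed level was 1022 to 1204 CPM (the count divided by the column total and scaled by the usual constant) with OCA+VIP and 968 to 1240 CPM with DMSO+VIP. Within that list, 4 of 14 tested markers were higher (Colec11, Ecm1, Ngfr and Vipr1) and 2 lower (Hgf and Des). Over all 11286 tested genes, 5.72% were higher and 6.04% lower (edgeR, adjusted p under 0.05). Macrophage markers summed to 32.8 to 44.8 CPM with OCA+VIP and 15.3 to 47.3 CPM with DMSO+VIP, of which Cd68 had 24.4 to 36.1 CPM with OCA+VIP and 15.3 to 26.5 CPM with DMSO+VIP, and Vsig4, Ptprc and C1qa (3 of 10) were at 0. Mesothelial markers summed to 12.1 to 17.3 CPM with OCA+VIP and 2.29 to 13.3 CPM with DMSO+VIP, mostly Krt19, with 5 of 9 at 0, among them Msln and Upk3b. Endothelial markers summed to 9.37 to 20.1 CPM with OCA+VIP and 4.15 to 9.84 CPM with DMSO+VIP, with Lyve1 and Emcn (2 of 10) at 0. The 17 hepatocyte markers summed to 313 to 491 CPM with OCA+VIP and to 181 to 198 CPM with DMSO+VIP. Of 13 tested, 9 were higher, among them Alb (106 to 174 CPM with OCA+VIP and 38.0 to 42.2 CPM with DMSO+VIP). Ttr, Apoh and Serpina1b, also among the 9, were at 0 in every DMSO+VIP library. They had enough counts to be tested only through OCA+VIP, where they were high, so the count of 9 is a description. Ass1, the 1 called lower, had 57.2 to 76.1 CPM with OCA+VIP and 99.2 to 119 CPM with DMSO+VIP. It held most of the DMSO+VIP sum in every library.

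The set of RefSeq promoter sequences used here held 6 of the 10 genes (Nfkb2, Nfkbia, Tnfaip3, Birc3, Icam1 and Il33, in GRCm38.p6, the assembly of mm10). The NF-kB dimers bind the kappa B motif, 10 bases long, searched here on both strands as its consensus. Of these 6 genes, Nfkb2, Nfkbia and Tnfaip3 held a match between 250 bases before and 50 bases after a start site, as did 5.1% of the 27025 genes with such a window. The 100 bases before the start are shown for these 3 genes and for Il33, the gene that fell, with the matched bases in capitals, each read 5′ to 3′ on the strand of the gene. They lie at chr19:46304637-46304736 (plus strand, Nfkb2), chr12:55492648-55492747 (minus strand, Nfkbia), chr10:19015411-19015510 (minus strand, Tnfaip3) and chr19:29925013-29925112 (plus strand, Il33).
Nfkb2: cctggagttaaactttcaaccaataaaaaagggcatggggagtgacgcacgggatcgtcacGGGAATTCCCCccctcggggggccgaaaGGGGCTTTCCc
Nfkbia: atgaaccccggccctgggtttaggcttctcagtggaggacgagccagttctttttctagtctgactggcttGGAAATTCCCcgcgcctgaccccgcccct
Tnfaip3: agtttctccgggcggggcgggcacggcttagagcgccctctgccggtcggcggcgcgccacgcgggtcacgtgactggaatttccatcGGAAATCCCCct
Il33: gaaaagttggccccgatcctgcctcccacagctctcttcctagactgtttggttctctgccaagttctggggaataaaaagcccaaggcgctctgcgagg

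The Nfkb2 stretch holds a palindromic match, which another overlaps by all but 1 base, and a match that ends 2 bases before the start. In Nfkbia the match lies 29 to 20 bases before the start and in Tnfaip3 12 to 3 bases before it, both read on the opposite strand, as GGGAATTTCC and GGGGATTTCC. A further Tnfaip3 match lies 125 to 116 bases before the start, outside the stretch shown. Neither tabulated start of Il33 has a match in its window, nor do those of Icam1 and Birc3, which says only that these letters are not in these windows.

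Il33 was the 1 gene of the 10 that passed the test. It encodes interleukin 33, a nuclear cytokine of the IL-1 family that is released from damaged cells and acts on immune cells as an alarmin. Il33 (chromosome 19, 29925113 to 29960717, mm10) had 16.7, 39.6 and 39.3 CPM in OCA+VIP libraries 1 to 3, against 115, 107 and 140.5 CPM in DMSO+VIP libraries 1 to 3. The groups did not overlap, and the highest OCA+VIP library lay under the lowest DMSO+VIP library by more than the spread within either group. The mean was 31.8 ± 13.2 CPM with OCA+VIP and 121 ± 17.5 CPM with DMSO+VIP (SD, n = 3 each), 3.81-fold lower with OCA+VIP (log2 fold change -1.93, SE 0.21, 95% interval -2.37 to -1.48, edgeR quasi-likelihood adjusted p = 2.9e-06). These levels rest on 75.5, 394 and 228 counts with OCA+VIP and on 527, 303.5 and 524.5 counts with DMSO+VIP. Since low counts lay in steps, how many separate reads these counts stand for is not known. With counts divided by 6 the log2 fold change was -1.86. In bulk RNA, fewer cells with Il33 and less Il33 RNA per cell cannot be told apart.

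By p, Il33 ranked 34 among the 11286 genes tested, and its call held in all 15 alternative fits, with log2 fold changes of -2.09 to -1.67. OCA+VIP library 1 had the lowest level, and without it the value was -1.67. Of 7 marker lists for other cells that the culture could hold, 4 had summed levels that did not overlap between the groups. Of all tested genes taken singly, 30.6% did not overlap, and no such share was computed for summed lists. The 9 portal fibroblast markers, like Il33, were lower, at 14.0 to 15.5 CPM with OCA+VIP and 36.4 to 61.1 CPM with DMSO+VIP. Among them Thy1 and Pi16 were at 0, and Fbln2 held most of the sum in every library. The other 3 lists had higher sums, the hepatocyte markers (given above) among them. Cholangiocyte markers summed to 17.3 to 21.0 CPM with OCA+VIP and 6.16 to 14.9 CPM with DMSO+VIP, with Krt7 and Cldn7 at 0. Of these, 0 of 2 tested were called. Krt19, also in the mesothelial list, overlapped between the groups (10.25 to 14.4 CPM with OCA+VIP and 2.29 to 13.3 CPM with DMSO+VIP, edgeR adjusted p = 0.33). Lymphocyte markers summed to 5.88 to 10.9 CPM with OCA+VIP and 0 to 1.31 CPM with DMSO+VIP, with 6 of 9 at 0. Only Cd79a was tested, at 3.67 to 8.35 CPM with OCA+VIP and 0 with DMSO+VIP. It had enough counts to be tested only through OCA+VIP, the group where it was high. Its edgeR adjusted p of 0.0025 is therefore given as a description. Among the stellate cell markers, Hgf, the hepatocyte growth factor gene, and Des, the desmin gene, were lower like Il33 (log2 fold changes -2.11 and -0.52, edgeR adjusted p = 9.5e-06 and 0.013), while Colec11 and Ecm1 were higher (2.17 and 0.87). The part of any of these in the Il33 result was not tested. The receptor for IL-33, Il1rl1, had no count in any library, and its coreceptor gene Il1rap had 17.6 ± 6.36 CPM with OCA+VIP and 22.2 ± 11.8 CPM with DMSO+VIP (log2 fold change -0.36, edgeR adjusted p = 0.59).

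**Figure D1:**
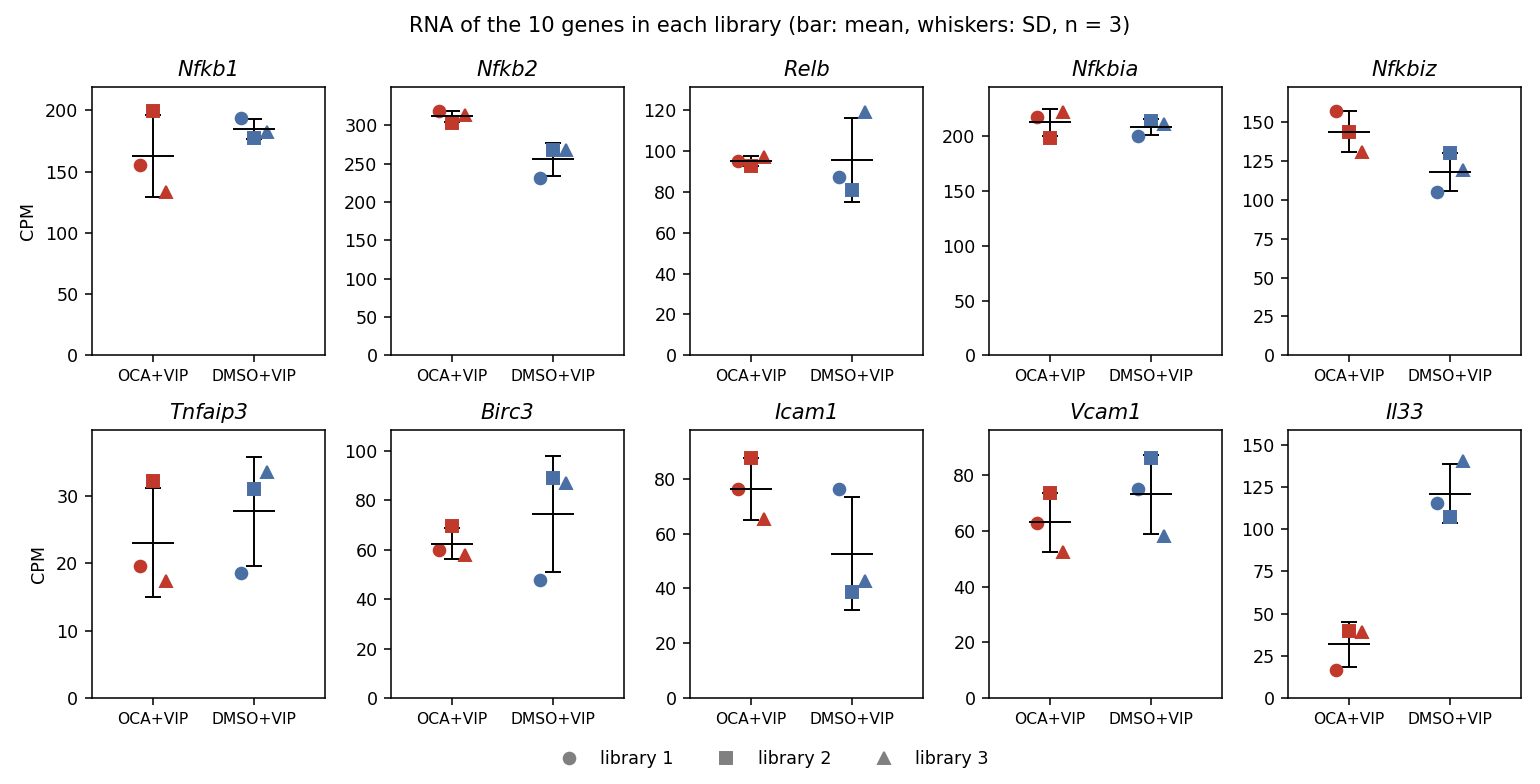
Level of each gene in every library, in CPM on an axis from 0, with OCA+VIP in red and DMSO+VIP in blue; bars are means and whiskers SD over 3 libraries. Il33 is the gene whose groups lie farthest apart, at 16.7 to 39.6 CPM with OCA+VIP and 107 to 140.5 CPM with DMSO+VIP, while Relb, Nfkbia and 5 others overlap.

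Of the 10 genes, 0 were called higher and 1 was called lower, against 5.72% higher and 6.04% lower, 11.8% in all, of the 11286 genes tested (edgeR, adjusted p under 0.05). Nfkb2 and Icam1, with Il33, had an unadjusted p under 0.05. The median log2 fold change was -0.11 over the 10 genes and 0.0010 over all tested genes. The levels of the groups did not overlap for 3 of the 10 genes, Nfkb2, Nfkbiz and Il33, and for 30.6% of all tested genes, so this count is near the background.

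The adhesion genes encode the endothelial and stromal ligands of leukocyte integrins. Icam1 (chromosome 9, 21015940 to 21028814), the ligand of the integrins LFA-1 and Mac-1, had 76.3, 87.6 and 65.1 CPM with OCA+VIP, against 76.3, 38.7 and 42.9 CPM with DMSO+VIP. DMSO+VIP library 1 lay among the OCA+VIP libraries and the other two DMSO+VIP libraries below all of them. Its log2 fold change was 0.51 (SE 0.21, 95% interval 0.08 to 0.94, edgeR adjusted p = 0.12), short of the threshold. Without DMSO+VIP library 1 the value was 0.87 and passed (adjusted p = 0.011), and with no filter on low counts it also passed (0.040), while over all alternatives the adjusted p was 0.011 to 0.35. An antisense gene, Gm47079, shares 11.72% of the exon bases of Icam1, and whether counting used strand is not given in the sources used here.

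Vcam1 (chromosome 3, 116110020 to 116129688), the ligand of the integrin VLA-4, had 62.7, 73.6 and 52.5 CPM with OCA+VIP, against 74.8, 86.1 and 58.0 CPM with DMSO+VIP. The groups overlapped, and the log2 fold change was -0.23 (SE 0.18, 95% interval -0.59 to 0.14, edgeR adjusted p = 0.46). Within each library the level of Icam1 per kb of exon stood at 1.60, 1.57 and 1.63 times that of Vcam1 with OCA+VIP, against 1.35, 0.593 and 0.975 times with DMSO+VIP. This ratio, which does not depend on scaling between libraries, was higher in all 3 OCA+VIP libraries and was chosen after the values were seen, so it is given as a description.

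**Figure D2:**
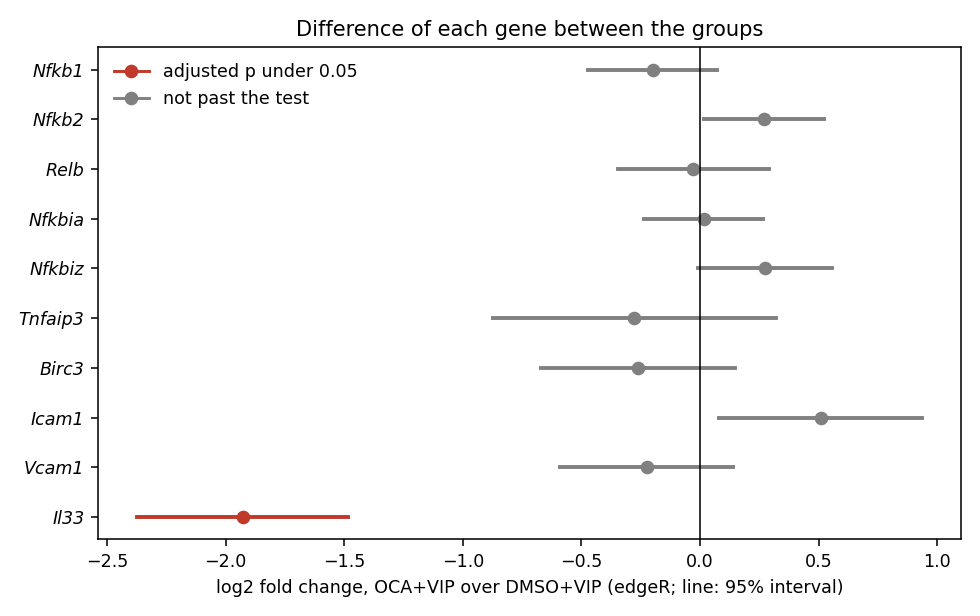
Log2 fold change of OCA+VIP over DMSO+VIP for each gene, with its 95% interval from edgeR. Il33 lies at -1.93, far left of the others, which lie between -0.28 and 0.51.

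Among the subunit genes, Nfkb2 (chromosome 19, 46304737 to 46312090), which encodes the precursor of the second branch, had 319, 303 and 313 CPM with OCA+VIP, against 231, 268 and 268 CPM with DMSO+VIP. All OCA+VIP libraries were higher, by a small margin. The log2 fold change was 0.27 (SE 0.12, 95% interval 0.02 to 0.52, edgeR adjusted p = 0.16), short of the threshold, and it passed in 1 of the 15 alternatives, without OCA+VIP library 2 (0.33, adjusted p = 0.049). Exons of Psd and of a divergent noncoding gene on the opposite strand share 6.52% and 11.58% of the exon bases of Nfkb2.

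Nfkb1 (chromosome 3, 135584655 to 135691547), which encodes the precursor of the subunit that pairs with RelA in the canonical branch, had 156, 199 and 134 CPM with OCA+VIP, against 194, 178 and 182 CPM with DMSO+VIP. OCA+VIP library 2 was the highest of all 6 and the other two OCA+VIP libraries the lowest, so the groups overlapped (log2 fold change -0.20, SE 0.13, 95% interval -0.47 to 0.07, edgeR adjusted p = 0.36). Relb (chromosome 7, 19606222 to 19629438), the partner of processed Nfkb2, had 95.3, 92.6 and 97.2 CPM with OCA+VIP, against 87.1, 80.8 and 119 CPM with DMSO+VIP. The OCA+VIP libraries fell inside the range of the DMSO+VIP libraries (log2 fold change -0.03, SE 0.15, 95% interval -0.35 to 0.29, edgeR adjusted p = 0.93). Per kb of exon, Nfkb2 stood at 2.77, 2.06 and 3.17 times Nfkb1 in the OCA+VIP libraries, against 1.61, 2.04 and 1.99 times in the DMSO+VIP libraries. The ratio in OCA+VIP library 2 was close to the highest DMSO+VIP ratio, and this ratio too was chosen after the values were seen.

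The feedback genes are induced by NF-kB and act back on it. Nfkbia (chromosome 12, 55489409 to 55492647), which encodes the inhibitor I-kappa-B alpha, had 218, 199 and 223 CPM with OCA+VIP, against 201, 214 and 211 CPM with DMSO+VIP. The DMSO+VIP libraries fell within the range of the OCA+VIP libraries, and the interval of the difference was narrow (log2 fold change 0.02, SE 0.12, 95% interval -0.23 to 0.27, edgeR adjusted p = 0.95). Nfkbiz (chromosome 16, 55811377 to 55822138), encoding I-kappa-B zeta, a nuclear cofactor for secondary response genes, had 157, 144 and 131 CPM with OCA+VIP, against 105, 130.0 and 119 CPM with DMSO+VIP. Its groups were adjacent without overlap, and the difference missed the threshold (log2 fold change 0.27, SE 0.14, 95% interval -0.01 to 0.56, edgeR adjusted p = 0.21).

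Tnfaip3 (chromosome 10, 19000910 to 19015410), a ubiquitin-editing enzyme that shuts off signalling upstream of IKK, was the lowest of the 10 by the mean of either group, with 19.5, 32.2 and 17.3 CPM with OCA+VIP, against 18.5, 31.0 and 33.5 CPM with DMSO+VIP. Its spread was wide in both groups (log2 fold change -0.28, SE 0.29, 95% interval -0.87 to 0.32, edgeR adjusted p = 0.60). Birc3 (chromosome 9, 7848701 to 7873170), a ubiquitin ligase and apoptosis inhibitor, had 60.0, 69.8 and 57.9 CPM with OCA+VIP, against 47.7, 88.9 and 86.9 CPM with DMSO+VIP. DMSO+VIP library 1 was the lowest of all 6 and the other two DMSO+VIP libraries the highest (log2 fold change -0.26, SE 0.20, 95% interval -0.67 to 0.15, edgeR adjusted p = 0.44). Without DMSO+VIP library 1 the log2 fold change of Birc3 was -0.52 (adjusted p = 0.068).

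The library with the highest or lowest CPM of its group was counted over the 10 genes. The same counts over all tested genes were not computed, so these are given as a description. OCA+VIP library 2, the deepest, had the highest CPM of its group for 6 of the 10 genes (Nfkb1, Tnfaip3, Birc3, Icam1, Vcam1 and Il33), and OCA+VIP library 3 the lowest for 6. DMSO+VIP library 1 had the lowest CPM of its group for 5 genes, all 4 feedback genes and Nfkb2, and the highest for Nfkb1 and Icam1. DMSO+VIP library 2 had the highest for 5 genes and the lowest for 4.

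**Figure D3:**
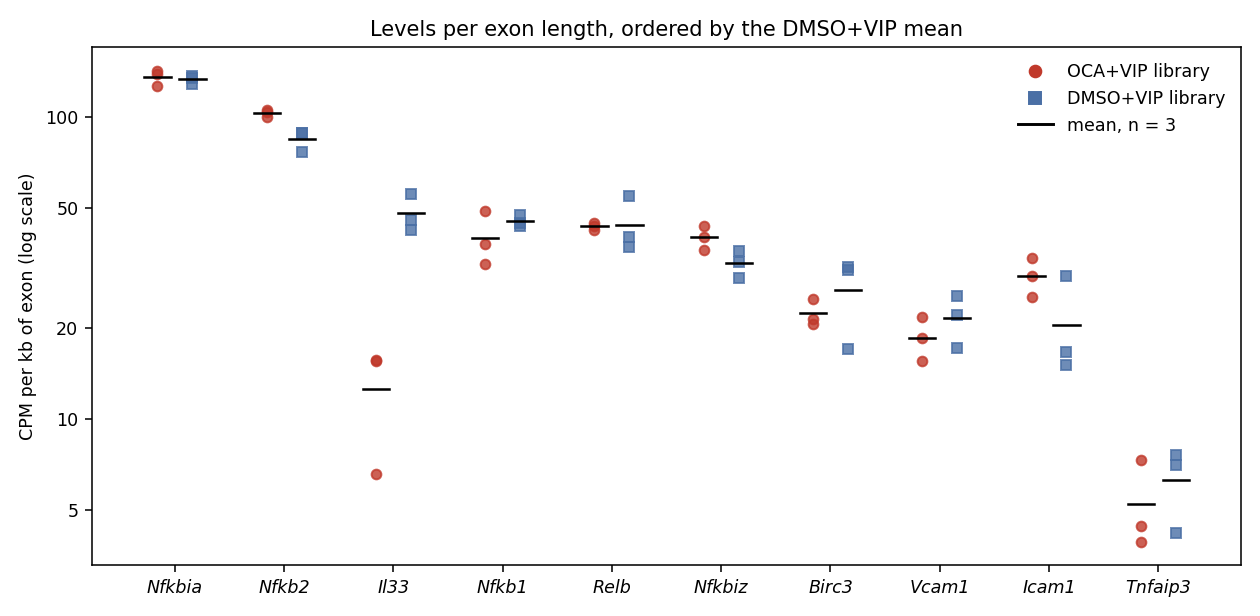
Level of each gene in CPM per kb of exon on a log axis, OCA+VIP in red left of DMSO+VIP in blue, with lines at the means of 3 libraries. In order of the DMSO+VIP mean, Il33 ranks 3 at 47.8, and its OCA+VIP mean of 12.6 is the second lowest.

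Per kb of exon, the order of levels with OCA+VIP was Nfkbia (136 ± 7.91 CPM per kb, SD, n = 3), Nfkb2 (103 ± 2.58), Relb (43.5 ± 1.07), Nfkbiz (39.9 ± 3.65), Nfkb1 (39.8 ± 8.16), Icam1 (29.7 ± 4.38), Birc3 (22.3 ± 2.26), Vcam1 (18.6 ± 3.11), Il33 (12.6 ± 5.21) and Tnfaip3 (5.22 ± 1.82). The ranges of neighbours were separate only between Nfkbia, Nfkb2 and Relb and between Icam1 and Birc3. With DMSO+VIP, Nfkbia (133 ± 4.50 CPM per kb) and Nfkb2 (84.5 ± 7.06) again led with separate ranges, followed by Il33 (47.8 ± 6.93), Nfkb1 (45.1 ± 2.05) and Relb (43.8 ± 9.45), whose ranges overlapped. By mean level, Il33 thus ranked 9 of the 10 with OCA+VIP and 3 with DMSO+VIP. Over all 6 libraries the mean level of Nfkbia was above that of 94.3% of tested genes and that of Tnfaip3 above 28.4%.

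The other genes of the pathway came from 7 lists of 132 symbols, arranged by role, of which 94 had enough counts to be tested. The lists were chosen with earlier results of these data known, and no set test was run. Among the 94 tested genes, 17 rose, 7 fell and 70 were not called, so that 25.5% were called. Of all tested genes 11.8% were called, 5.72% higher and 6.04% lower. The share among genes of like count level was not computed. The median log2 fold change of the 94 genes was 0.08. Without OCA+VIP library 1 the count was 15, as calls over all genes dropped to 737 of 11589, and without OCA+VIP library 3 it was 14, with 751 of 11595 over all genes, against 1328 of 11286 with all libraries. It was 17 to 24 without any 1 of the others. The 38 genes that were not tested reached at most 6.56 CPM in any library, and 12 of them were at 0 in all, among them the cytokine gene Il1b and the selectin gene Selp. Tnf had 0.5, 14 and 0 counts in the OCA+VIP libraries and 0.5, 0 and 0 in the DMSO+VIP libraries, so that nearly all came from OCA+VIP library 2, the deepest. Il1b, Selp and Tnf were chosen after their values were seen.

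**Figure D4:**
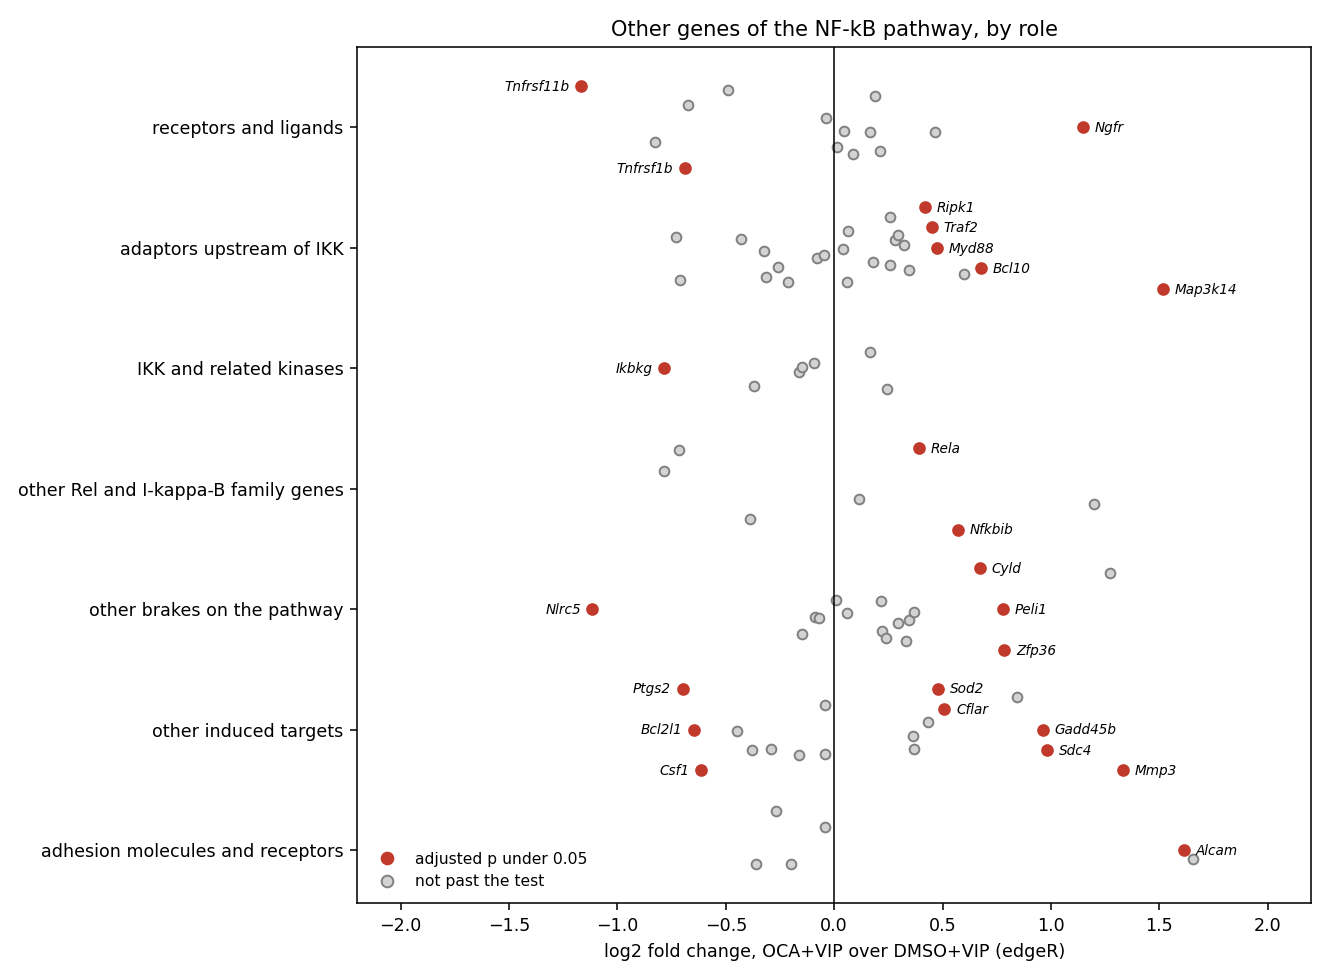
Log2 fold change of OCA+VIP over DMSO+VIP for the 94 tested genes of the 7 pathway lists, 1 point a gene, red where the edgeR adjusted p is under 0.05; height within a row has no meaning. Map3k14 (1.52) and Alcam (1.61) lie farthest right and Tnfrsf11b (-1.17) farthest left among the called genes.

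Of 25 tested genes for adaptors and kinases upstream of IKK, 5 rose and 0 fell (median log2 fold change 0.18). Map3k14 (chromosome 11, 103219764 to 103267401), encoding the NF-kB-inducing kinase of the second branch, had 50.8, 58.2 and 63.6 CPM with OCA+VIP, against 20.9, 14.97 and 23.3 CPM with DMSO+VIP. Every OCA+VIP library was more than 2 times the highest DMSO+VIP library (2.86-fold, log2 fold change 1.52, SE 0.22, edgeR adjusted p = 6.0e-05). Bcl10, a scaffold of antigen and receptor signalling to IKK, had 135 ± 8.65 CPM with OCA+VIP and 83.4 ± 2.11 CPM with DMSO+VIP (log2 fold change 0.68, edgeR adjusted p = 0.0017). The adaptor gene Myd88, the kinase gene Ripk1 and the ubiquitin ligase gene Traf2 rose by 0.47, 0.42 and 0.45 on the log2 scale. Their calls were lost on leaving out any 1 of 5, 5 and 4 libraries (edgeR adjusted p of 0.062 to 0.22, 0.056 to 0.23 and 0.094 to 0.16). All 3 calls were also lost with upper-quartile scaling (0.061, 0.070 and 0.052), and that of Ripk1 with a replicate block (0.072). Acaa1a on the opposite strand shares 11.26% of the exon bases of Myd88, and the pseudogene Gm17084 shares 6.12% of those of Ripk1.

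Among the receptors and ligands, 1 of 14 tested genes rose and 2 fell, with 11 not called (median log2 fold change 0.03). Tnfrsf1b, the inducible TNF receptor, had 225 ± 27.5 CPM with OCA+VIP and 359 ± 34.9 CPM with DMSO+VIP (log2 fold change -0.69, edgeR adjusted p = 0.00058). Tnfrsf11b, which encodes the decoy receptor osteoprotegerin, had 23.8 ± 2.88 CPM with OCA+VIP and 52.9 ± 12.3 CPM with DMSO+VIP (log2 fold change -1.17, edgeR adjusted p = 0.00096). Ngfr, the low-affinity neurotrophin receptor and also a stellate cell marker, rose (1.15, edgeR adjusted p = 0.021), and its call was lost without DMSO+VIP library 2 and without OCA+VIP library 1 or 3 (0.071 to 0.13), and with limma-voom (0.052).

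Of 7 tested genes for IKK and related kinases, only Ikbkg passed, and it fell (median of the list -0.15). Ikbkg, which encodes the regulatory subunit of IKK, had 57.6 ± 6.36 CPM with OCA+VIP and 98.4 ± 13.9 CPM with DMSO+VIP (log2 fold change -0.79, edgeR adjusted p = 0.0015), and G6pdx on the opposite strand shares 5.15% of its exon bases. In the other Rel and I-kappa-B genes, 2 of 7 rose and 0 fell (median 0.11). Nfkbib, encoding I-kappa-B beta, had 161 ± 14.98 CPM with OCA+VIP and 107 ± 6.89 CPM with DMSO+VIP (log2 fold change 0.57, edgeR adjusted p = 0.0070), a call lost without OCA+VIP library 1 (0.051), and Ccer2 on the opposite strand shares 14.48% of its exon bases. Rela, encoding the main activating subunit, had 204 ± 7.92 CPM with OCA+VIP and 154 ± 16.4 CPM with DMSO+VIP (log2 fold change 0.39, edgeR adjusted p = 0.036), a call lost on leaving out any 1 of 4 libraries (0.0999 to 0.15), with upper-quartile scaling (0.058) and with a replicate block (0.065).

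Of 17 tested brakes on the pathway, 3 rose and 1 fell (median 0.24). Zfp36, which encodes an RNA-binding protein that speeds the decay of cytokine mRNA, had 256 ± 8.27 CPM with OCA+VIP and 147 ± 14.0 CPM with DMSO+VIP (log2 fold change 0.78, edgeR adjusted p = 0.00014). The ubiquitin ligase gene Peli1 and the deubiquitinase gene Cyld rose by 0.78 and 0.67 on the log2 scale. Leaving out OCA+VIP library 3 ended the call of Peli1 (edgeR adjusted p = 0.055), and leaving out any 1 of 3 libraries that of Cyld (0.073 to 0.085). Nlrc5, the transactivator of MHC class I genes, fell by 1.12 on the log2 scale, a call lost on leaving out any 1 of 5 libraries (0.070 to 0.17) and with a replicate block (0.070).

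Other induced targets moved both ways, with 5 of 18 tested genes higher, 3 lower and a median of 0.16. Gadd45b, a stress sensor, and Sdc4, a heparan sulfate proteoglycan, had log2 fold changes of 0.96 and 0.98 (edgeR adjusted p = 0.00037 and 0.00060). Ptgs2, the inducible cyclooxygenase, had 160.4 ± 19.0 CPM with OCA+VIP and 258 ± 12.9 CPM with DMSO+VIP (log2 fold change -0.70, edgeR adjusted p = 0.00041). The macrophage growth factor gene Csf1 and the survival gene Bcl2l1 fell by 0.62 and 0.65 on the log2 scale. The remaining rises, named after their values were seen, were Cflar (0.51), Sod2 (0.48) and Mmp3 (1.33), and Sod2 and Mmp3 lost their calls on leaving out any 1 of 3 and of 4 libraries (edgeR adjusted p of 0.076 to 0.10 and 0.11 to 0.21). Mmp3 was called in 6 of 14 alternatives, and also missed the threshold with upper-quartile scaling, library-size scaling, the 1 CPM filter and limma-voom. Of 6 tested adhesion and receptor genes, Alcam, a homophilic adhesion molecule, rose (1.61, edgeR adjusted p = 0.020), with 16.3 ± 3.38 CPM with OCA+VIP and 5.35 ± 2.65 CPM with DMSO+VIP, and lost its call on leaving out any 1 of 3 libraries (0.072 to 0.084). The list's median was -0.12.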

How the data were processed

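The authors deposited 1 table of expected counts per gene over exons, not scaled to library size (their totals differ) and in steps of 0.5, with 1 RefSeq transcript a gene and its exon length. The submitters' processing notes name mm10, STAR, HOMER and DESeq2. Strand use and duplicate removal are not given in the sources used here. Columns were assigned to groups by name, since nothing links their numbers to the lettered titles.

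Counts were rounded and tested with edgeR 4.0.16 (R 4.3.3): filterByExpr by group (minimum count 10, minimum total 15), TMM, a two-sided quasi-likelihood F test and p-values adjusted by Benjamini-Hochberg (threshold 0.05) over the 11286 genes tested. SE is the log2 fold change divided by the square root of F, and 95% intervals use the test's degrees of freedom. CPM use the column total, and CPM per kb divide by the exon length. The main edgeR fit was tested on simulated counts of known fold changes, which did not hold the steps of the deposited counts. Alternatives were 3 other scalings, 2 filters, DESeq2 1.42.0, limma-voom 3.58.1, a replicate block, counts divided by 6 and leaving out each library. Of the pathway lists, called genes of at least 1 CPM are named, and the 5 of smallest p where more were called. The 10 genes, the lists and the alternatives were chosen with earlier results of these data known. Exon overlaps come from GENCODE M21, and promoters from RefSeq. The kappa B consensus has 3 G, a purine, any base, A or T, 2 pyrimidines and 2 C. Summaries were made in pandas 2.3.3 and numpy 2.4.6 under Python 3.11.15, plots in matplotlib 3.10.9.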

Additional observations from a re-analysis of the deposited data

How the results depend on the processing

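Il33 passed the test in the same direction in all 15 alternatives (edgeR, DESeq2 or limma-voom, adjusted p at most 0.00022), and Nfkb1, Relb, Nfkbia, Nfkbiz, Tnfaip3, Birc3 and Vcam1 passed in none. The number of the 10 genes called was 2 with no filter (Il33 and Icam1) and 1 to 2 on leaving out single libraries (Icam1 without DMSO+VIP library 1, Nfkb2 without OCA+VIP library 2). Values near 0 changed sign: Nfkbia was -0.022 with upper-quartile scaling, -0.0020 with counts divided by 6 and -0.032 to 0.10 on leaving out single libraries, where Relb was -0.13 to 0.16. The cause was not tested. DESeq2 called 2245 genes, 1130 higher and 1115 lower, with 29 of the pathway lists, while edgeR called 1328, 646 higher and 682 lower, with 24 of the pathway lists. Upper-quartile scaling gave 551 higher and 791 lower, with 19 of the pathway lists. Leaving out single libraries gave 737 to 1478 calls, 310 to 745 higher and 395 to 733 lower, and 14 to 24 of the pathway lists, with fewer samples in each fit and the fewest calls without OCA+VIP library 1 or 3. With the column number as a replicate block edgeR called 1118 genes, 1 of the 10 and 21 of the pathway lists. Among the named genes of the lists, Ripk1, Rela and Nlrc5 lost their calls there. Deviations from the group means correlated at -0.035, -0.05 and 0.03 between same-numbered columns, and not every column correlated best with its own number. Since nothing links these numbers to the lettered titles, this check cannot tell whether any libraries shared a mouse or culture. With 3 libraries a group the precision was low for some genes, with a 95% interval of -0.87 to 0.32 for Tnfaip3.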
